A study of Mus musculus with 15 samples.

Results

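The genes described here encode 7 cathepsins (Ctss, Ctsl, Ctsb, Ctsz, Ctsh, Ctsc and Ctsd), the related protease legumain (Lgmn), and 2 lysosome membrane proteins of macrophages (Cd68 and Laptm5). They were chosen by name as lysosomal proteases and macrophage lysosome membrane genes, with earlier results of these data known. All 10 were found once among the 55487 gene identifiers of the count table. The question put to them was how much of each transcript in whole forebrain goes with macrophages. Whole forebrain RNA came from wild-type (WT) mice, whose tissue was frozen after dissection, and gave 15 sequencing libraries with n = 3 per group. Treated mice form the groups PLX1X (PLX 1x), PLX3X_CD0 (PLX 3x), PLX3X_CD30 and IR-BMT, and NT mice had no treatment. PLX3X_CD30 is known as a 3X group from library names alone, its titles saying just that PLX was given. Meanings of the abbreviations PLX, 1x, 3x, CD0, CD30 and IR-BMT, and any age, dose or duration, are not stated in the labels. The title of the series concerns macrophages that derive from monocytes and settle in the brain. Whether each library is a mouse of its own is not stated, and the p-values therefore rest on a spread among libraries that could be technical.

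Lysosomes are acidic compartments in which proteases of several classes digest proteins taken up from outside or delivered from within the cell. Cathepsins S, L, B, Z, H and C are cysteine proteases, cathepsin D is an aspartic protease, and legumain cuts after asparagine and processes other cathepsins. In the brain, microglia and other macrophages are rich in lysosomes and are known for high cathepsin S, while neurons and glia also carry cathepsins B, D and L.

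Levels are CPM, each gene's count relative to the total of its library after TMM scaling, given as mean ± SD over n = 3 libraries, and ± beside a log2 fold change is its standard error. Total counts ran from 19249641 to 54801136 per library, and the members had between 95 and 49692 counts in a library. All 10 members were among the 21780 genes tested with edgeR's quasi-likelihood test, whose p-values were Benjamini-Hochberg adjusted over those genes, with calls at 0.05. All comparisons against NT share the same 3 NT libraries. As a measure of macrophage RNA, the counts of 16 genes shared by microglia and other macrophages, none of them a member, were summed (the macrophage total). That sum stood at 3.79% to 11.04% of its NT mean in PLX1X libraries, at 3.16% to 7.85% in PLX3X_CD0 libraries, at 41.7% to 44.1% in PLX3X_CD30 libraries and at 43.7% to 49.2% in IR-BMT libraries. Bulk RNA cannot tell fewer cells from less RNA per cell, here or in any result below. NT replicate 1 had the smallest total and is named where it decides a value. All 16 genes were called lower in PLX1X and PLX3X_CD0, 7 in PLX3X_CD30 and 9 in IR-BMT, and none of them was at 0 in any group. Of all genes tested, 8.12%, 9.53%, 1.84% and 15.4% were called lower in PLX1X, PLX3X_CD0, PLX3X_CD30 and IR-BMT. On leaving out 1 library, 4 to 7 of the 16 passed in PLX3X_CD30 and 7 to 8 in IR-BMT. These 16 were also chosen with earlier results of these data known. The 8 neuron genes looked at all had counts in every group. As genes of neurons in general, they cannot check the forebrain label.

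The promoters of Ctss, Laptm5, Cd68 and Ctsd are shown because these genes span the range of losses, with Ctss and Laptm5 near the macrophage total in PLX1X and PLX3X_CD0, Cd68 higher and Ctsd higher still. The sequences are from RefSeq on GRCm38.p6 and run from 250 bases before to 50 after the start annotated there, 5′ to 3′ on the gene's strand. The gene positions given below are from GENCODE, and the starts can differ. For Laptm5 the GENCODE start (130913125) comes before the GGAAGT, which thus lies inside the GENCODE gene. Capitals mark every GGAAGT, a core that ETS factors such as PU.1 can bind, with GAGGAAGT where the longer form is met, and every CACGTG, an E-box core that TFEB and related factors can bind, on either strand.
Ctss (chr3:95526536-95526835, plus strand): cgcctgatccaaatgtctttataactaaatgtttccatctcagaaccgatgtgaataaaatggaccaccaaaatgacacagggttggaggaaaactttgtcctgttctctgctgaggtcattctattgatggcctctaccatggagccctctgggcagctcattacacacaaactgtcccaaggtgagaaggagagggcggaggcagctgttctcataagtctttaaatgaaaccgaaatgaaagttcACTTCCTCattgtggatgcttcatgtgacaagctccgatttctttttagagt
Laptm5 (chr4:130913066-130913365, plus strand): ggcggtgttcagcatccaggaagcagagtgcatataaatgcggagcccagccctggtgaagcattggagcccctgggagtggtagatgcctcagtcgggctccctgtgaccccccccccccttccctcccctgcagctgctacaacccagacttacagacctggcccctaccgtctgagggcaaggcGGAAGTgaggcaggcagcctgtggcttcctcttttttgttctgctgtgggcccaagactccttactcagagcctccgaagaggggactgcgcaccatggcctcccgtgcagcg
Cd68 (chr11:69666121-69666420, minus strand): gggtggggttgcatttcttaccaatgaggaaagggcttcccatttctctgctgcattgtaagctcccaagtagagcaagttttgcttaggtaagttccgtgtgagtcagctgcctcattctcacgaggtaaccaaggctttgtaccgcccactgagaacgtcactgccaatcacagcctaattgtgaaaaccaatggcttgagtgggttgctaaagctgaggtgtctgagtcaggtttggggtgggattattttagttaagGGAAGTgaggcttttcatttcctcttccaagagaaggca
Ctsd (chr7:142387778-142388077, minus strand): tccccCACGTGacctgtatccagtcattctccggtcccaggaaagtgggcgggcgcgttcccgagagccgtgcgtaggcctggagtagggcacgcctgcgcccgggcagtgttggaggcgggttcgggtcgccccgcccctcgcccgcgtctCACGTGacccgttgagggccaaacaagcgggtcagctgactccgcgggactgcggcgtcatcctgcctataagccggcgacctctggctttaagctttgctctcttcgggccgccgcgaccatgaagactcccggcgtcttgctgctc
Of the 10 members, 8 were matched in the promoter table, with 9 entries because Lgmn has 2 starts there. GGAAGT stood in the promoters of Ctss, Laptm5, Cd68 and Ctsc, which is 4 of 9 entries, against 23.8% of all 32851 promoters of that length. The longer GAGGAAGT, which contains GGAAGT, stood in Ctss, where it begins 2 bases before the start on the opposite strand, and in Ctsc (3.20% of all promoters). CACGTG stood in Ctsl, in Ctsd at 2 places and in 1 entry of Lgmn (7.15% of all promoters), and its extended form TCACGTGA stood in Ctsd (0.974%). The entry of Ctsl and that entry of Lgmn lie wholly inside the genes as GENCODE places them. TGAGTCA, an AP-1 core searched on both strands and not in capitals, stood in the Cd68 promoter at 2 places (5.20% of all promoters), and neither the palindromic CLEAR element (0.326% of all promoters) nor TTGCGCAA, a C/EBP site (0.183%), stood in any of the 9 entries. A match describes these letters only, and no binding was measured.

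Among the cysteine endopeptidases, Ctss fell in PLX1X, PLX3X_CD0 and IR-BMT, while no fall passed for Ctsl or Ctsb. Ctss encodes cathepsin S, a protease that stays active at neutral pH and trims the invariant chain of MHC class II (ENSMUSG00000038642, chromosome 3, 95526786 to 95556403, mm10, plus strand). Its libraries stood at 6.26, 7.86 and 3.22 CPM in PLX1X, at 3.06, 5.78 and 1.79 in PLX3X_CD0, at 36.1, 43.5 and 44.7 in PLX3X_CD30, at 29.999, 24.9 and 22.5 in IR-BMT, and at 69.1, 75.2 and 80.2 in NT. PLX1X and PLX3X_CD0 libraries overlapped each other at the bottom, IR-BMT and PLX3X_CD30 libraries followed without overlap, and every NT library lay above all others. Against NT, the log2 fold change was -3.69 ± 0.36 in PLX1X (12.9-fold lower, adjusted p = 8.20e-05), -4.40 ± 0.38 in PLX3X_CD0 (21.2-fold lower, adjusted p = 1.79e-05) and -1.54 ± 0.33 in IR-BMT (2.91-fold lower, adjusted p = 0.00459). In PLX3X_CD30 it was -0.85 ± 0.32 (adjusted p = 0.1499), which did not pass in edgeR's fit of all 15 libraries and passed at -0.87 ± 0.09 (adjusted p = 0.00168) in edgeR's fit of the 6 libraries compared. On a log scale the spread of Ctss was widest in the PLX1X and PLX3X_CD0 libraries, which enter the first fit and not the second.

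Ctsl and Ctsb stayed within a narrow range in the same brains. Ctsl encodes cathepsin L, an endopeptidase of most cell types (ENSMUSG00000021477, chromosome 13, 64359337 to 64370890, minus strand). Its libraries stood at 101, 97.9 and 94.0 CPM in PLX1X, at 89.1, 101 and 90.9 in PLX3X_CD0, at 88.9, 88.3 and 96.8 in PLX3X_CD30, at 89.6, 93.7 and 92.1 in IR-BMT, and at 87.3, 98.3 and 90.006 in NT. Every treated group overlapped NT, no change against NT passed (adjusted p = 0.342, 0.823, 0.956 and 0.983 with edgeR), and the 95% intervals of the 4 log2 fold changes lay between -0.14 and 0.22. The sign in PLX3X_CD0, PLX3X_CD30 and IR-BMT turned under other settings. Ctsb encodes cathepsin B, an endopeptidase that also trims dipeptides from chain ends (ENSMUSG00000021939, chromosome 14, 63122462 to 63145923, plus strand). It had 920, 915 and 953 CPM in PLX1X, 895, 850.02 and 878 in PLX3X_CD0, 953, 943 and 937 in PLX3X_CD30, 955, 939 and 926 in IR-BMT, and 831, 885 and 843 in NT. PLX1X, PLX3X_CD30 and IR-BMT libraries all lay above the NT libraries, and the log2 fold change was 0.12 ± 0.05, 0.15 ± 0.05 and 0.14 ± 0.05 in that order. PLX3X_CD0 libraries overlapped NT, at 0.04 ± 0.05 (adjusted p = 0.652, edgeR). With edgeR, only the IR-BMT rise passed (adjusted p = 0.0292, against 0.0756 in PLX1X and 0.0661 in PLX3X_CD30), and it did not pass without NT replicate 1 or 3, without IR-BMT replicate 1 or 2, or in the fit of 6 libraries (adjusted p = 0.147). Ctsb shares 774 exonic bases with Fdft1, a cholesterol synthesis gene on the opposite strand, and the kit does not mark strand. Fdft1 rose by 0.44 to 0.49 on the log2 scale in all 4 treated groups (adjusted p = 8.58e-06 in PLX1X, 8.16e-06 in PLX3X_CD0, 2.84e-04 in PLX3X_CD30 and 9.46e-06 in IR-BMT with edgeR), and its part in the Ctsb counts was not tested.

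**Figure D1:**
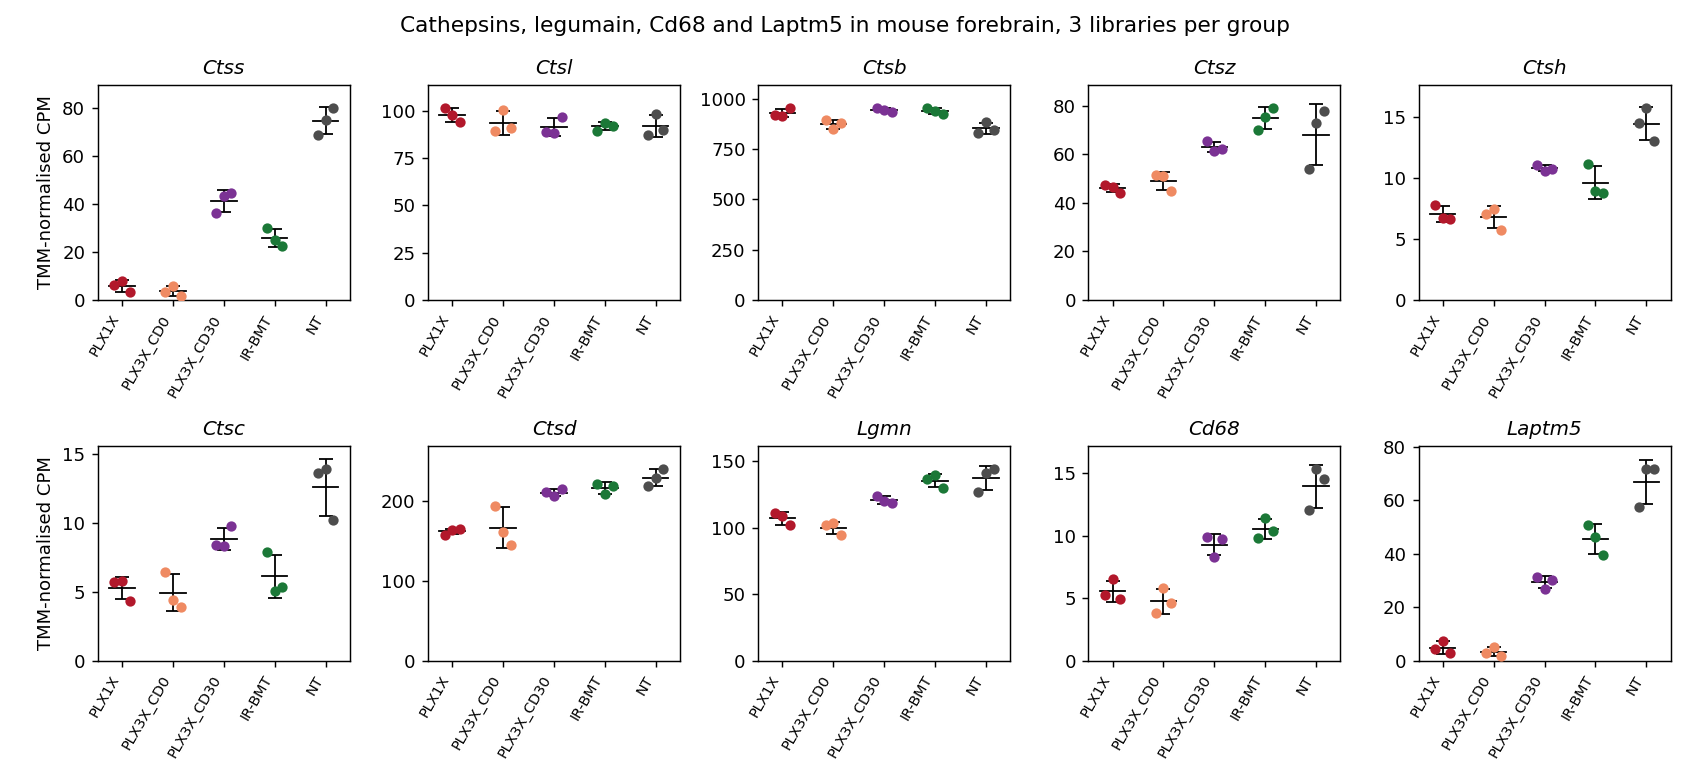
TMM-normalised CPM (vertical axes, from 0, a scale of its own in each panel) of the 10 members in the 5 groups of forebrain libraries (horizontal axes). Points are libraries, the long bar is the mean and the whiskers are 1 SD (n = 3). Ctss and Laptm5 lie near 0 in PLX1X and PLX3X_CD0, Ctsl and Ctsb stay level, and the other members lie between.

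The exopeptidases, which remove residues from chain ends, kept from 39.2% to 72.1% of the NT mean in PLX1X and PLX3X_CD0 brains. Ctsz encodes cathepsin Z, a carboxypeptidase (ENSMUSG00000016256, chromosome 2, 174427493 to 174439039, minus strand). Its libraries had 47.4, 46.7 and 44.2 CPM in PLX1X, 51.5, 51.2 and 44.8 in PLX3X_CD0, 65.4, 61.6 and 62.2 in PLX3X_CD30, 70.1, 75.3 and 79.1 in IR-BMT, and 53.9, 72.8 and 77.9 in NT. Every PLX1X and PLX3X_CD0 library lay below every NT library, while PLX3X_CD30 and IR-BMT libraries overlapped NT. The log2 fold change was -0.57 ± 0.10 in PLX1X (adjusted p = 7.85e-04, edgeR) and -0.48 ± 0.10 in PLX3X_CD0 (adjusted p = 0.00214, edgeR). In PLX3X_CD30 it was -0.12 ± 0.10 (adjusted p = 0.531, edgeR). Without NT replicate 1, which held the lowest NT value, Ctsz passed as lower in PLX3X_CD30 (-0.24, adjusted p = 0.0377, edgeR). In IR-BMT the log2 fold change was 0.13 ± 0.10 (adjusted p = 0.356, edgeR) and -0.02 without NT replicate 1.

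Ctsh and Ctsc were scarce and fell further. Ctsh encodes cathepsin H, mainly an aminopeptidase (ENSMUSG00000032359, chromosome 9, 90054152 to 90076089, plus strand). It had 7.75, 6.69 and 6.64 CPM in PLX1X, 7.07, 7.47 and 5.74 in PLX3X_CD0, 11.1, 10.6 and 10.7 in PLX3X_CD30, 11.1, 8.94 and 8.76 in IR-BMT, and 14.5, 15.7 and 13.0 in NT. No library of a treated group reached the lowest NT library. With edgeR, the log2 fold change was -1.03 ± 0.12 in PLX1X (adjusted p = 1.64e-05), -1.09 ± 0.12 in PLX3X_CD0 (adjusted p = 4.17e-06), -0.42 ± 0.12 in PLX3X_CD30 (adjusted p = 0.0466) and -0.58 ± 0.12 in IR-BMT (adjusted p = 0.00122). The PLX3X_CD30 call was lost without any 1 of the PLX3X_CD30 libraries or without NT replicate 1 or 2. Ctsc encodes cathepsin C, the dipeptidyl peptidase that activates granule serine proteases of blood cells (ENSMUSG00000030560, chromosome 7, 88278085 to 88310888, plus strand). Its libraries stood at 5.74, 5.76 and 4.33 CPM in PLX1X, 6.48, 4.44 and 3.90 in PLX3X_CD0, 8.40, 8.32 and 9.78 in PLX3X_CD30, 7.91, 5.10 and 5.38 in IR-BMT, and 13.7, 14.0 and 10.2 in NT. All treated libraries lay below NT, and the IR-BMT libraries lay below the PLX3X_CD30 ones and overlapped the PLX1X and PLX3X_CD0 ones. The fall was -1.25 ± 0.20 in PLX1X, -1.35 ± 0.20 in PLX3X_CD0 and -1.04 ± 0.20 in IR-BMT (adjusted p = 3.16e-04, 9.72e-05 and 7.00e-04 with edgeR), and in PLX3X_CD30 the value was -0.51 ± 0.19 (adjusted p = 0.134, edgeR).

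The aspartic protease and legumain kept most of their transcript. Ctsd encodes cathepsin D, the main aspartic protease of lysosomes, whose loss in people causes a neuronal storage disease (ENSMUSG00000007891, chromosome 7, 142375911 to 142388038, minus strand). Its libraries had 158, 163 and 164 CPM in PLX1X, 194, 161 and 145 in PLX3X_CD0, 210, 205 and 214 in PLX3X_CD30, 222, 208 and 218 in IR-BMT, and 219, 229 and 240 in NT. PLX1X, PLX3X_CD0 and PLX3X_CD30 libraries lay below NT, and IR-BMT overlapped it. Ctsd fell by 0.50 ± 0.08 on the log2 scale in PLX1X and by 0.46 ± 0.08 in PLX3X_CD0 (adjusted p = 1.50e-04 and 2.14e-04 with edgeR). Lgmn encodes legumain (ENSMUSG00000021190, chromosome 12, 102394084 to 102439813, minus strand). It had 111, 109 and 102 CPM in PLX1X, 102, 103 and 94.98 in PLX3X_CD0, 124, 120 and 119 in PLX3X_CD30, 137, 140 and 130 in IR-BMT, and 127, 141 and 145 in NT. Again the 3 PLX groups lay below NT and IR-BMT overlapped it. Lgmn fell by 0.36 ± 0.06 in PLX1X and by 0.46 ± 0.06 in PLX3X_CD0 on the log2 scale (adjusted p = 2.87e-04 and 1.44e-05 with edgeR). In PLX3X_CD30, Lgmn was at -0.19 ± 0.06 and Ctsd at -0.13 ± 0.08 (adjusted p = 0.0589 and 0.355, edgeR), and without NT replicate 1 Lgmn passed there (-0.23, adjusted p = 0.0183, edgeR).

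Of the membrane proteins, Laptm5 fell as far as Ctss in PLX1X and PLX3X_CD0, and Cd68 fell less. Laptm5 encodes a lysosomal transmembrane protein of blood-derived cells that lowers surface antigen receptors (ENSMUSG00000028581, chromosome 4, 130913125 to 130936141, plus strand). Its libraries stood at 4.35, 7.47 and 2.71 CPM in PLX1X, 2.81, 5.06 and 1.77 in PLX3X_CD0, 31.3, 26.8 and 30.3 in PLX3X_CD30, 50.7, 46.1 and 39.7 in IR-BMT, and 57.5, 71.8 and 71.7 in NT. The IR-BMT libraries lay above the PLX3X_CD30 ones without overlap, the reverse of their order for Ctss. With edgeR, the log2 fold change was -3.79 ± 0.36 in PLX1X (13.8-fold lower, adjusted p = 6.70e-05) and -4.39 ± 0.38 in PLX3X_CD0 (20.9-fold lower, adjusted p = 1.67e-05). It was -1.19 ± 0.32 in PLX3X_CD30 (adjusted p = 0.0514) and -0.56 ± 0.31 in IR-BMT (adjusted p = 0.207), and both passed in edgeR's fits of 6 libraries (adjusted p = 3.79e-04 and 0.00585). Cd68 encodes macrosialin, a heavily glycosylated membrane protein used as a stain for phagocytes (ENSMUSG00000018774, chromosome 11, 69664213 to 69666153, minus strand). It had 5.27, 6.51 and 4.90 CPM in PLX1X, 3.79, 5.84 and 4.59 in PLX3X_CD0, 9.88, 8.30 and 9.70 in PLX3X_CD30, 9.83, 11.4 and 10.4 in IR-BMT, and 12.1, 15.4 and 14.5 in NT. NT libraries lay above all treated ones. With edgeR, the log2 fold change was -1.33 ± 0.15 in PLX1X (2.52-fold lower, adjusted p = 8.58e-06), -1.57 ± 0.15 in PLX3X_CD0 (2.96-fold lower, adjusted p = 7.00e-07), -0.59 ± 0.15 in PLX3X_CD30 (adjusted p = 0.0200) and -0.41 ± 0.15 in IR-BMT (adjusted p = 0.0393). The PLX3X_CD30 call was lost without NT replicate 2 or PLX3X_CD30 replicate 2 or 3, and the IR-BMT call without NT replicate 2 or 3 or any 1 of the IR-BMT libraries.

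In PLX1X, 8 of 10 members fell and none rose, where 8.12% of all genes tested fell and 9.97% rose (18.1% passed in either direction). The median log2 fold change was -0.80 over the members and -0.04 over all genes. In PLX3X_CD0 the same 8 members fell, where 9.53% of all genes fell and 12.2% rose (21.7% passed), with medians of -0.78 and -0.03. In PLX3X_CD30, Ctsh and Cd68 fell, 2 of 10 where 1.84% of all genes fell and 4.74% rose (6.57% passed), with medians of -0.30 and -0.02. In IR-BMT, 4 members (Ctss, Ctsh, Ctsc and Cd68) fell where 15.4% of all genes fell, and Ctsb rose where 15.1% rose (30.6% passed), with medians of -0.25 and -0.05. The members were chosen with earlier results of these data known, so these counts are a description.

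Set beside the macrophage total, the members formed a graded series. In PLX1X and PLX3X_CD0 brains, where the macrophage total averaged 7.33% and 5.06% of NT, Ctss kept 7.72% and 4.73% and Laptm5 kept 7.23% and 4.80%. Cd68 kept 39.8% and 33.9%, Ctsc 41.8% and 39.2%, and Ctsh 48.8% and 46.9%. Ctsz kept 67.6% and 72.1%, Ctsd 70.6% and 72.7%, and Lgmn 78.0% and 72.8%. Ctsl stood at 106% and 102% and Ctsb at 109% and 102%. The median over the members was 59.5% in PLX3X_CD0. Sums of other cell type markers were taken in the same libraries. In PLX1X, PLX3X_CD0, PLX3X_CD30 and IR-BMT, the summed level of 8 neuron genes averaged 118%, 120%, 122% and 124% of NT, that of 8 astrocyte genes 84.6%, 81.9%, 91.1% and 98.7%, and that of 8 oligodendrocyte genes 83.4%, 72.4%, 81.6% and 67.8%. The sum of 8 genes of border-associated macrophages averaged 18.0%, 19.9%, 62.7% and 83.9%. The part of these cell types in the member levels was not tested.

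**Figure D2:**
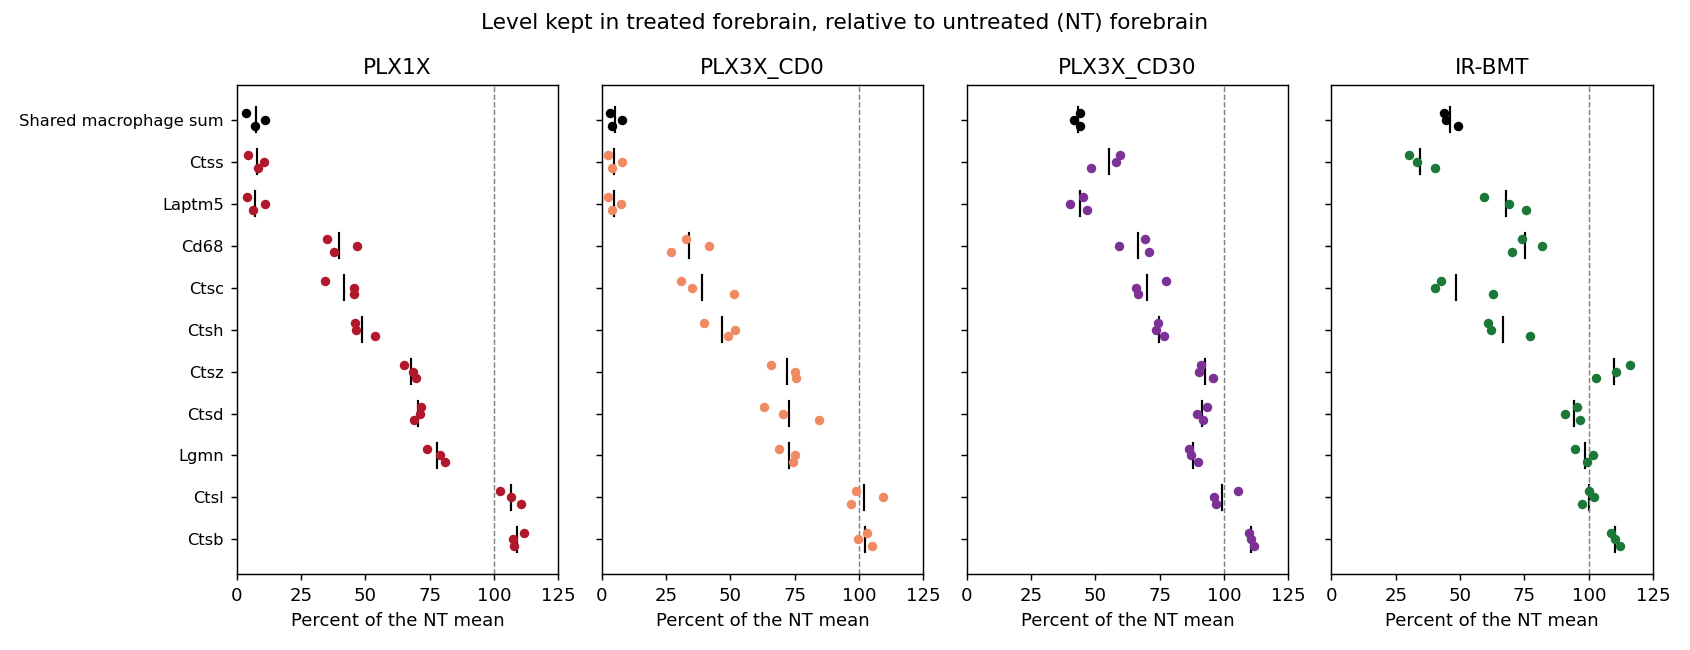
Level of the shared macrophage sum and of each member as percent of the NT mean (horizontal axes, dashed line at 100) in the 3 libraries of each treated group, with the mean as a vertical bar. Ctss and Laptm5 lie with the macrophage sum in PLX1X and PLX3X_CD0, Cd68, Ctsc and Ctsh at 27.1% to 53.8%, Ctsz, Ctsd and Lgmn at 63.1% to 84.6% there, and Ctsl and Ctsb around 100%.

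Whether a member moved by another factor than the macrophage total was tested by putting that total in place of the library size in the edgeR fit of all genes. In PLX1X, Ctss was at 0.11 ± 0.41 and Laptm5 at -0.01 ± 0.41 on this log2 scale (adjusted p = 0.787 and 0.982), with 95% intervals from -0.69 to 0.91 and from -0.81 to 0.79. In PLX3X_CD0, Ctss was at -0.14 ± 0.41 and Laptm5 at -0.09 ± 0.41 (adjusted p = 0.725 and 0.820), so neither could be told from the macrophage total, at intervals this wide. In this fit the other 8 members stood above it in both groups, where 98.8% and 99.3% of all genes tested were called higher and 0.023% and 0.0184% lower on this scale. The median was 3.22 over the members and 3.96 over all genes in PLX1X, and 3.69 and 4.46 in PLX3X_CD0. Their values ran from 2.63 ± 0.44 for Cd68 (adjusted p = 3.38e-09) to 4.16 ± 0.47 for Ctsb (adjusted p = 2.33e-18) in PLX1X. In PLX3X_CD0 they ran from 2.88 ± 0.45 for Cd68 (adjusted p = 1.31e-10) to 4.54 ± 0.48 for Ctsb (adjusted p = 5.05e-21). These places depended on the genes summed. Against the total of 10 microglia-restricted genes instead, Ctsl, Ctsb, Ctsz, Ctsd and Lgmn stood above it in both groups, 5 members where 75.9% and 86.2% of all genes were higher in PLX1X and PLX3X_CD0. Ctss and Laptm5 stood below it, 2 members where 0.95% and 0.707% of all genes were lower, Ctss at -2.58 and -2.92 and Laptm5 at -2.68 and -2.90 in PLX1X and PLX3X_CD0. Cd68, Ctsc and Ctsh did not pass on that scale in either group, with Cd68 at -0.16 and -0.031 (adjusted p = 0.566 and 0.907 with edgeR), Ctsc at -0.092 and 0.24 (adjusted p = 0.743 and 0.357) and Ctsh at 0.16 and 0.47 (adjusted p = 0.561 and 0.0651). Sparc, which astrocytes and vessels also express, made up 83.6% to 87.8% of the microglia-restricted counts in PLX1X and 51.0% to 63.5% in NT. With Sparc left out, all 8 passed as higher again, while Ctss was at -0.92 and -1.60 and Laptm5 at -1.02 and -1.55, still past the threshold in both groups. In PLX3X_CD30 and in IR-BMT, against the 16-gene total, Ctsl, Ctsb, Ctsz, Ctsd and Lgmn stood above it, 5 members where 68.6% and 54.9% of all genes were called higher and 0.0459% and 0.161% lower (68.7% and 55% passed). The medians there were 0.90 over the members and 1.18 over all genes, and 0.88 and 1.07. There Ctss was at 0.35 ± 0.41 and -0.42 ± 0.41 and Laptm5 at 0.02 ± 0.41 and 0.56 ± 0.41, none of them passing (adjusted p = 0.417, 0.351, 0.958 and 0.214). Without NT replicate 3, those 5 calls came down to 1 in each of PLX3X_CD30 and IR-BMT, and without NT replicate 2 to 2 in PLX3X_CD30 and 1 in IR-BMT. In IR-BMT they also came down to 2 without IR-BMT replicate 2 or 3.

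Counted per 100 counts of the macrophage total, Ctss had 13.3 to 16.3 counts in PLX1X libraries, 10.6 to 13.7 in PLX3X_CD0, 15.3 to 19.4 in PLX3X_CD30, 9.57 to 11.3 in IR-BMT and 13.3 to 14.9 in NT. Laptm5 had 11.3 to 13.3 counts in PLX1X, 10.5 to 12.6 in PLX3X_CD0, 12.0 to 13.2 in PLX3X_CD30, 16.9 to 19.2 in IR-BMT and 12.4 to 12.7 in NT. IR-BMT libraries were thus the highest for Laptm5, without overlap, and lay below NT and PLX3X_CD30 for Ctss. Within a library, Laptm5 had 1.69 to 1.85 counts for each count of Ctss in IR-BMT and 0.617 to 0.990 in the other 12 libraries. That ratio was looked at after the values were seen and is given without a test. Cd68 had 10.99 to 27.1 counts per 100 macrophage counts in the PLX1X and PLX3X_CD0 libraries, 3.70 to 4.17 in PLX3X_CD30, 3.72 to 4.76 in IR-BMT and 2.50 to 2.71 in NT.

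**Figure D3:**
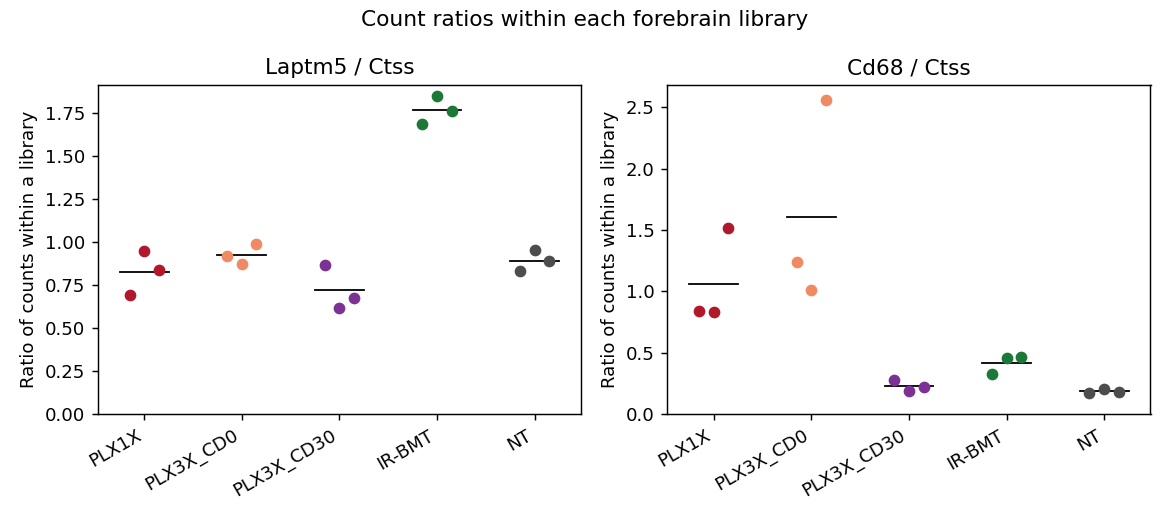
Counts of Laptm5 (left) and of Cd68 (right) for each count of Ctss within a library (vertical axes, from 0), by group. Points are libraries and bars are means. The 3 IR-BMT libraries lie at 1.69 to 1.85 on the left, above the 0.617 to 0.990 of all others, while on the right the PLX1X and PLX3X_CD0 libraries are the highest.

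Treated groups were also compared with each other. PLX3X_CD0 against PLX1X gave no call among the 10 members, where 2.46% of all genes passed, 0.67% lower and 1.79% higher (0 of 10 members at an unadjusted p under 0.05 with edgeR and 0 with DESeq2). The log2 difference was -0.72 ± 0.39 for Ctss and -0.60 ± 0.39 for Laptm5 (adjusted p = 0.421 and 0.520 with edgeR), with 95% intervals from -1.58 to 0.14 and from -1.46 to 0.27. PLX3X_CD30 against PLX3X_CD0 gave 7 members higher and none lower, where 1.87% of all genes were higher and 1.94% lower (3.81% passed), with a median log2 difference of 0.52 over the members and 1.02e-04 over all genes. Ctss was 11.7-fold higher in PLX3X_CD30 (3.55 ± 0.37, adjusted p = 4.55e-04, edgeR) and Laptm5 9.17-fold higher (3.20 ± 0.37, adjusted p = 8.19e-04, edgeR). Cd68 rose by 0.97 ± 0.15, Ctsc by 0.84 ± 0.20, Ctsh by 0.68 ± 0.12, Ctsd by 0.33 ± 0.08 and Lgmn by 0.27 ± 0.06 on the log2 scale. Ctsz was at 0.36 ± 0.10 (adjusted p = 0.0536, edgeR), while Ctsb was at 0.11 ± 0.05 and Ctsl at -0.03 ± 0.06 (adjusted p = 0.238 and 0.869, edgeR). The calls for Ctsc, Ctsd and Lgmn were lost without PLX3X_CD0 replicate 3 or PLX3X_CD30 replicate 1, which left 4 members. Those for Ctsc and Ctsd were also lost without PLX3X_CD0 replicate 2 or PLX3X_CD30 replicate 3, and that for Ctsc without PLX3X_CD30 replicate 2.

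IR-BMT against PLX3X_CD30 set 2 groups with nearly the same macrophage total side by side. With edgeR over all 15 libraries no member passed, where 16.5% of all genes did, 8.89% lower and 7.63% higher (3 members at an unadjusted p under 0.05, and 2, Ctsc lower and Lgmn higher, with DESeq2). Ctss was at -0.69 ± 0.32 and Laptm5 at 0.63 ± 0.32 (adjusted p = 0.190 and 0.219), Ctsc at -0.53 ± 0.20 (adjusted p = 0.0792), Ctsz at 0.25 ± 0.10 (adjusted p = 0.1003) and Lgmn at 0.16 ± 0.06 (adjusted p = 0.0620). All 5 separated the groups without overlap, and the share of all genes that do so is not given here. In edgeR's fit of those 6 libraries, all 5 passed with the same signs, 3 higher and 2 lower of 10 members where 24.4% of all genes passed, 12.4% higher and 12% lower. Ctss was at -0.69 ± 0.11 (adjusted p = 0.00120), Laptm5 at 0.62 ± 0.08 (adjusted p = 1.27e-04), Ctsc at -0.54 ± 0.15 (adjusted p = 0.0181), Ctsz at 0.25 ± 0.06 (adjusted p = 0.00524) and Lgmn at 0.16 ± 0.05 (adjusted p = 0.0212). In the fit of 15 libraries, the other 5 members had log2 differences from -0.17 to 0.18.

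Levels of different genes were compared per kilobase of merged exons, a length that includes annotated exons whether or not they are used in brain. Per kilobase, Ctsb was the highest member in PLX1X (154 ± 3.40 CPM per kilobase) and in NT (141 ± 4.71), followed by Ctsd (68.8 ± 1.47 in PLX1X, 97.5 ± 4.604 in NT). In PLX1X, Ctss stood at 4.26 ± 1.74 CPM per kilobase, below Ctsl (15.1 ± 0.57) and within the spread of Cd68 (4.42 ± 0.67), where in NT it stood above both (Ctsl 14.2 ± 0.89, Cd68 11.1 ± 1.37). In NT, Lgmn (59.3 ± 3.92), Ctss and Ctsz (47.3 ± 8.78) came next after Ctsd and did not separate beyond their spread.

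Over the 15 libraries, the log2 CPM of each member was correlated with that of the 10778 better expressed genes, as a description, since all libraries share the same group differences. Ctss was most like Csf1r, the receptor that microglia need to survive (Pearson r = 0.989), then C1qa and C1qb. Laptm5 was most like C1qb (0.996), Cx3cr1 and Selplg, and Cd68 was most like Tmem119 (0.982), Vsir and Cx3cr1. The leading gene was Rab3il1 for Lgmn (0.966), Lamtor4 for Ctsz (0.960), Unc93b1 for Ctsd (0.936) and Ctsh for Ctsc (0.929). For Ctsb it was Yaf2 (0.946) and for Ctsl Exosc2 (0.823). With the macrophage total, r was 0.987 for Ctss and 0.992 for Laptm5, 0.975 for Cd68 and 0.798 to 0.935 for the exopeptidases, Ctsd and Lgmn, against -0.08 for Ctsb and -0.27 for Ctsl.

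Other lysosome genes moved in both directions, and the proton pump mostly upwards. Of 18 tested subunits of the vacuolar ATPase, the proton pump that acidifies lysosomes and synaptic vesicles, 12 rose and 1 fell in PLX1X, 11 rose and 1 fell in PLX3X_CD0, 10 rose in PLX3X_CD30 and 10 rose and 2 fell in IR-BMT. Of all genes tested, 9.97%, 12.2%, 4.74% and 15.1% rose and 8.12%, 9.53%, 1.84% and 15.4% fell in PLX1X, PLX3X_CD0, PLX3X_CD30 and IR-BMT. Atp6v0a1, a membrane subunit, had 741 ± 20.1, 795 ± 11.4, 732 ± 14.7 and 800 ± 21.1 CPM in those groups, against 565 ± 33.4 in NT, and rose by 0.39 ± 0.05, 0.49 ± 0.05, 0.37 ± 0.05 and 0.50 ± 0.05 on the log2 scale. The rise in this list counted 14, 12, 12 and 13 genes with a length and GC offset and 8, 6, 3 and 8 in fits of 6 libraries. The neuron genes given above were higher in the same libraries, and their part in this list was not tested. Of 11 genes of lysosomal sorting and its gene control, 6, 4, 3 and 5 rose and 0, 1, 0 and 1 fell in PLX1X, PLX3X_CD0, PLX3X_CD30 and IR-BMT, led by Igf2r, the mannose 6-phosphate receptor (0.33 ± 0.06, 0.84 ± 0.06, 0.27 ± 0.06 and 0.62 ± 0.06), and Sort1, a sorting receptor (0.31 ± 0.06, 0.57 ± 0.06, 0.31 ± 0.06 and 0.46 ± 0.06). On leaving out 1 library, 3 to 6, 5, 1 to 3 and 4 to 7 of the 11 passed in those groups.

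Hydrolases moved both ways, as did all genes tested, of which 9.97%, 12.2%, 4.74% and 15.1% rose and 8.12%, 9.53%, 1.84% and 15.4% fell in the 4 treated groups, in the order below. Of 35 lysosomal hydrolases and activators, 8, 10, 5 and 10 rose and 6, 6, 1 and 5 fell in PLX1X, PLX3X_CD0, PLX3X_CD30 and IR-BMT. In fits of 6 libraries the falls equalled or outnumbered the rises in the 3 PLX groups (3 rose and 3 fell, 4 rose and 5 fell, and 0 rose and 1 fell). Psap, the precursor of the saposins, rose by 0.23 ± 0.05, 0.24 ± 0.05, 0.20 ± 0.05 and 0.31 ± 0.05. On leaving out 1 library, 8 to 10, 10 to 11, 1 to 6 and 7 to 10 of 19 lysosomal membrane proteins passed. With all 15 libraries, 7, 6, 4 and 7 of the 19 rose and 4, 4, 2 and 4 fell. Among them Slc29a3, a nucleoside transporter, fell by 0.51 ± 0.09, 0.34 ± 0.09, 0.38 ± 0.09 and 0.30 ± 0.09, and Hgsnat, a membrane acetyltransferase of heparan sulphate breakdown, rose by 0.42 ± 0.06, 0.34 ± 0.06, 0.26 ± 0.06 and 0.23 ± 0.06. Of 5 other cathepsins tested, Ctso fell in PLX1X and IR-BMT (-0.28 ± 0.09 in both), Ctsf rose in PLX3X_CD0 (0.20 ± 0.07) and Ctsa rose in IR-BMT (0.17 ± 0.06). With the length and GC offset, 1 of the 5 rose and 0 fell in PLX1X, and none passed in IR-BMT.

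**Figure D4:**
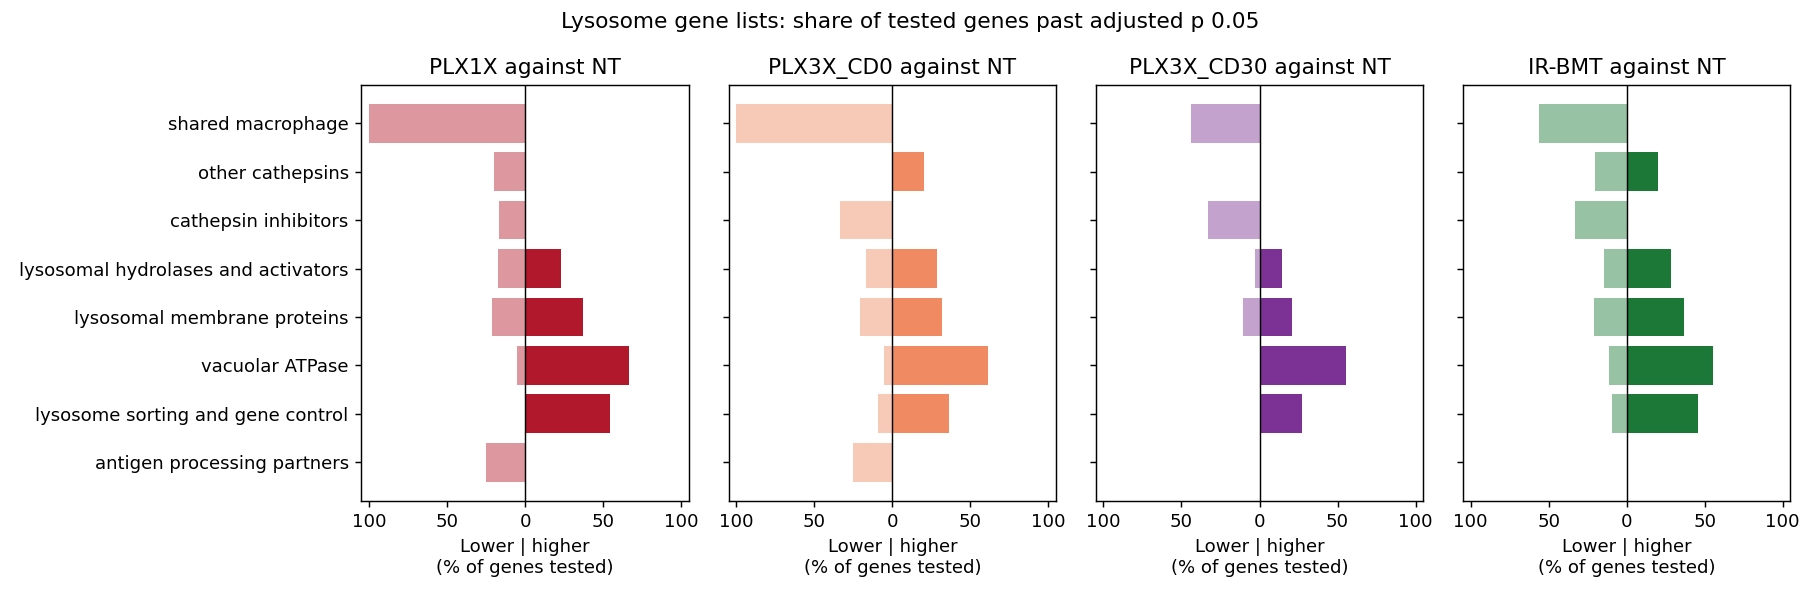
Share of the tested genes of each list that passed an adjusted p of 0.05 in edgeR (horizontal axes, percent of genes tested), lower to the left in pale and higher to the right in dark, for the 4 treated groups against NT. All 16 shared macrophage genes were lower in PLX1X and PLX3X_CD0, while the vacuolar ATPase bars lie mostly to the right in every panel.

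The inhibitors and antigen processing partners of the cathepsins are small lists, in which a few genes fell. Cst3, which encodes the secreted cathepsin inhibitor cystatin C, had 1088 ± 56.7 CPM in PLX1X, 1068 ± 115 in PLX3X_CD0, 1323 ± 109 in PLX3X_CD30 and 1575 ± 169 in IR-BMT, against 1665 ± 135 in NT. It fell by 0.61 ± 0.09, 0.64 ± 0.09 and 0.33 ± 0.09 on the log2 scale in the 3 PLX groups (adjusted p = 1.49e-04, 5.89e-05 and 0.0333 with edgeR) and stood at -0.08 ± 0.09 in IR-BMT (adjusted p = 0.540, edgeR). Of 6 inhibitors tested, 1, 2, 2 and 2 fell in PLX1X, PLX3X_CD0, PLX3X_CD30 and IR-BMT and none rose. Of all genes, 8.12%, 9.53%, 1.84% and 15.4% fell and 9.97%, 12.2%, 4.74% and 15.1% rose in those groups. With the length and GC offset, 1 inhibitor rose in each of PLX1X, PLX3X_CD0 and IR-BMT. On leaving out 1 library, 0 to 1 inhibitors passed in PLX3X_CD30 and 0 to 2 in IR-BMT. Of 8 antigen processing partners, Ifi30, a lysosomal thiol reductase (-1.27 ± 0.35 in PLX1X and -1.23 ± 0.35 in PLX3X_CD0), and H2-DMb1, a chain of the peptide editor (-1.11 ± 0.25 and -1.16 ± 0.25), fell in those 2 groups, where the same 8.12% and 9.53% of all genes fell. None of the 8 passed in PLX3X_CD30 or IR-BMT, and on leaving out 1 library 0 to 2 and 0 to 3 passed there. Cd74, the invariant chain that cathepsin S trims, was at -0.86 ± 0.45, -1.23 ± 0.46, 0.74 ± 0.44 and 0.57 ± 0.44 in PLX1X, PLX3X_CD0, PLX3X_CD30 and IR-BMT (adjusted p = 0.230, 0.0830, 0.370 and 0.369 with edgeR). In PLX3X_CD30 against PLX3X_CD0, Cd74 was called higher, 1 of the 8 where 1.87% of all genes were higher.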

How the data were processed

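The authors deposited a table of counts per gene with, for every library, the same counts as CPM. Dividing counts by library totals gave back the CPM of the authors, and the counts were tested. Per the labels' protocols, the cDNA kit was SMARTer Ultra Low, a kind that does not mark strand. The tools DRAGEN and DESeq2 and the build mm10 are named, per the submitters' processing notes, with versions, strand setting and annotation not given in the sources used here. Of 55774 table rows, 287 rows that repeated an identifier with identical counts were removed. Positions and exon lengths came from GENCODE mouse release 21 (mm10), which holds 55141 of the 55487 identifiers.

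Groups follow library names. The tests used edgeR 4.0.16 under R 4.3.3 (limma 3.58.1 loaded): TMM, filterByExpr, 1 fit over 15 libraries, robust quasi-likelihood F-tests, two-sided, adjusted over 21780 genes, biological coefficient of variation 12.1%. Each standard error is the size of the log2 fold change divided by √F, and the 95% intervals use it. A parallel fit took the summed counts of the 16 macrophage genes as library size. The scripts were tested on simulated counts with known changes. Other settings tried were RLE size factors, DESeq2 1.42.0, no filter, a filter of CPM of at least 1 in 3 libraries, fits of 6 libraries, the replicate number as a block, each library left out, and another macrophage total. A loess offset (span 0.3) on transcript length and GC content, known for 99.9% of the genes tested, and the microglia total without Sparc were added after seeing the data.

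The members and lists (23 lists, 222 genes) were chosen with earlier results of these data known. The genes named are the 10 members, the 3 genes of average log2 CPM of at least 3 most like each member, and of each lysosome list up to 4 past the threshold with the smallest p per comparison against NT and up to 4 with the highest mean CPM, of which some are given. Fdft1, and the members behind counts of 5 or fewer, were named after their values were seen. Ctsl and Ctsd also share exonic bases with genes listed at 0, and Ctsz shares 10 bases with Nelfcd. Replicate pairs of a group differed beyond sampling noise (chi-square per degree of freedom 3.74 to 24.2). One gene that the naming rule picks is not reported here.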

Additional observations from a re-analysis of the deposited data

How the results depend on the processing

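Of the fold changes against NT, none of the 8 falls called in PLX1X and PLX3X_CD0 was lost under any alternative run. Against the macrophage total, the calls of Cd68, Ctsc and Ctsh in both groups were lost with the microglia-restricted total. They were present again when Sparc was left out of that total. The counts of members called changed elsewhere. For IR-BMT against PLX3X_CD30 the count was 0 in edgeR over 15 libraries, 4 without the filter on low counts, 1 with the replicate block, 2 with DESeq2, 5 in the fit of 6 libraries, and 0 to 1 on leaving out 1 library. For PLX3X_CD0 against PLX1X it was 0, and 2 without the filter. For PLX3X_CD30 against NT it was 2, and 5 without the filter, 4 with the stricter filter, 5 with DESeq2, and 0 to 3 on leaving out 1 library. On leaving out 1 library it was 3 to 4 of 5 in IR-BMT against NT and 4 to 7 in PLX3X_CD30 against PLX3X_CD0. Against the macrophage total, the 5 calls in IR-BMT and the 5 in PLX3X_CD30 became 1 to 5 on leaving out 1 library, and those in PLX3X_CD30 became 8 with the microglia-restricted total without Sparc. The cause of these changes was not tested.

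Some values changed sign, among them fold changes near 0. With the length and GC offset, Ctsb in PLX3X_CD0 was at -0.0032 and Ctsl at -0.0083 in PLX3X_CD0, 3.33e-04 in PLX3X_CD30 and 0.14 in IR-BMT. Ctsl in IR-BMT was at 0.0074 with RLE size factors and 0.0067 with DESeq2. On leaving out 1 library, Ctsl ran from -0.029 to 0.077 in PLX3X_CD0, from -0.051 to 0.044 in PLX3X_CD30 and from -0.046 to 0.054 in IR-BMT, Ctsz in IR-BMT from -0.018 to 0.24 and Lgmn in IR-BMT from -0.086 to 0.017. Against the macrophage total, Laptm5 ran from -0.061 to 0.054 in PLX1X and from -0.0071 to 0.062 in PLX3X_CD30, and Ctsc in IR-BMT from -0.13 to 0.22. With the microglia-restricted total in its place, large called values turned too: Cd68 was at -0.16 in PLX1X and -0.031 in PLX3X_CD0, in place of 2.63 and 2.88, and Ctsc at -0.092 in PLX1X, in place of 2.67. With Sparc left out of that total, Cd68 and Ctsc passed as higher again in both groups. Values that were not called turned to -2.58 for Ctss in PLX1X (-0.92 without Sparc), -0.34 for Ctsc in IR-BMT (-0.11 without Sparc) and -0.32 for Laptm5 in PLX3X_CD30. The cause was not tested.

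The labels state no pairing of libraries with the same replicate number. Over 30 such pairs, r of their deviations ran from -0.09 to 0.23, with 4 pairs above 0.1. Of the 15 libraries, 8 were most like one of their own number, and these values do not settle whether libraries are paired. The replicate block gave 3833 calls in place of 3939 in PLX1X against NT and changed no call among the members' fold changes other than that of Ctsc in IR-BMT against PLX3X_CD30 (-0.56). Depth limits Ctss and Laptm5 most in PLX3X_CD0, where their lowest libraries had 96 and 95 counts.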
